A study of Gallus gallus with 4 samples.

Results

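The HOX genes encode homeodomain transcription factors that lie in 4 clusters, A to D, and are numbered 1 to 13 by their place along the cluster. Members with low numbers are used furthest forward along the head-to-tail axis of the vertebrate embryo and members with high numbers furthest back, so the set of HOX genes a cell transcribes records where along the body it arose. In skin, fibroblasts keep such a code into adult life in human tissue, and HOX proteins are known in chicken feather tracts, where their patterns differ between body regions. HOX proteins bind DNA together with cofactors of the PBX and MEIS families, and their loci are held open or shut by Trithorax and Polycomb complexes and respond to retinoic acid.

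All genes in the deposited tables whose symbol is HOX, a cluster letter and a number were taken, which gave 36 of 16878 genes. Cluster A has 11 of them, B 9, C 8 and D 8. By paralogue number, 6 are anterior (1 to 3), 14 central (4 to 8) and 16 posterior (9 to 13). The members were chosen by name and not by their values. Each of the 36 genes had at least 1 UMI (unique molecular identifier, a tag that collapses PCR copies of 1 transcript) in the barcodes described here.

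The tissue came from the dorsal midline of White Leghorn chicken embryos, in 4 droplet libraries with 1 library per group. Plucked feathers at day 12 (Hamburger-Hamilton stage 38) and a strip of skin with its feathers in place at the same day and stage were digested with Pronase into whole cells. Plucked feathers at day 13 (stage 39) and day 14 (stage 40) were homogenised into nuclei. The labels give no transgene or treatment, and not the number or sex of the embryos in each library. Age and the change from cells to nuclei cannot be told apart between day 12 and the later days, so levels are set side by side there and their difference was not tested.

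After filtering, 6208 barcodes were kept in the plucked library at day 12, 5411 in the in-skin library at day 12, 19457 at day 13 and 19435 at day 14, from deposited totals of 56504070 to 72385294 UMIs per library. Pairs of libraries shared 20 to 176 barcode sequences, at most 0.777% of a library. Epithelial barcodes (at least 3 UMIs of GATA3 and KRT5 together, at most 5 of COL1A1 and COL1A2) numbered 3791, 1659, 2747 and 3000 in these libraries in that order. Fibroblast barcodes (at least 5 UMIs of COL1A1 and COL1A2, at most 2 of GATA3 and KRT5) numbered 853, 2298, 452 and 367. Levels are CPM, a gene's UMIs summed over a class and divided by that class's UMIs other than globin and mitochondrial ones, times 1e6. Genes differ in length and in shared sequence, so levels are compared between samples of 1 gene and not between genes.

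The labels of both classes held in direction against genes that did not define them. All 9 other epithelial markers found in the files were higher in epithelial barcodes and all 12 other fibroblast markers were lower there (edgeR quasi-likelihood test, adjusted p under 0.05). The summed fibroblast markers were 136 to 569 CPM in epithelial barcodes and 5915 to 12104 CPM in fibroblast barcodes, with none of the 12 at 0 in any epithelial sum. Smooth muscle and mural markers summed to 735 to 1102 CPM in fibroblast barcodes of the plucked libraries and 3639 CPM in those of the in-skin library, and tendon markers to 18.9 to 63.3 CPM in the plucked libraries and 716 CPM in the in-skin one. The fibroblast class is therefore collagen-rich mesenchyme rather than 1 cell type. Globin-rich barcodes (at least 50% globin UMIs), red blood cells by their content, served as a level for free RNA. They were limited to at most 2 UMIs of GATA3 and KRT5 and at most 4 of COL1A1 and COL1A2. Their HOX genes summed to 293, 134, 219 and 61.1 CPM in plucked day 12, in-skin day 12, day 13 and day 14. The values of plucked and in-skin day 12 rest on 25 and 24 UMIs. Epithelial markers were also present in fibroblast barcodes. At day 13 EPCAM had 326 CPM in fibroblast, 490 CPM in epithelial and 465 CPM in globin-rich nuclei. DSP had 587, 961 and 743 CPM in these, and TP63 had 280, 767 and 99.1 CPM. The class differences at day 13 are read with this limit.

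**Figure D1:**
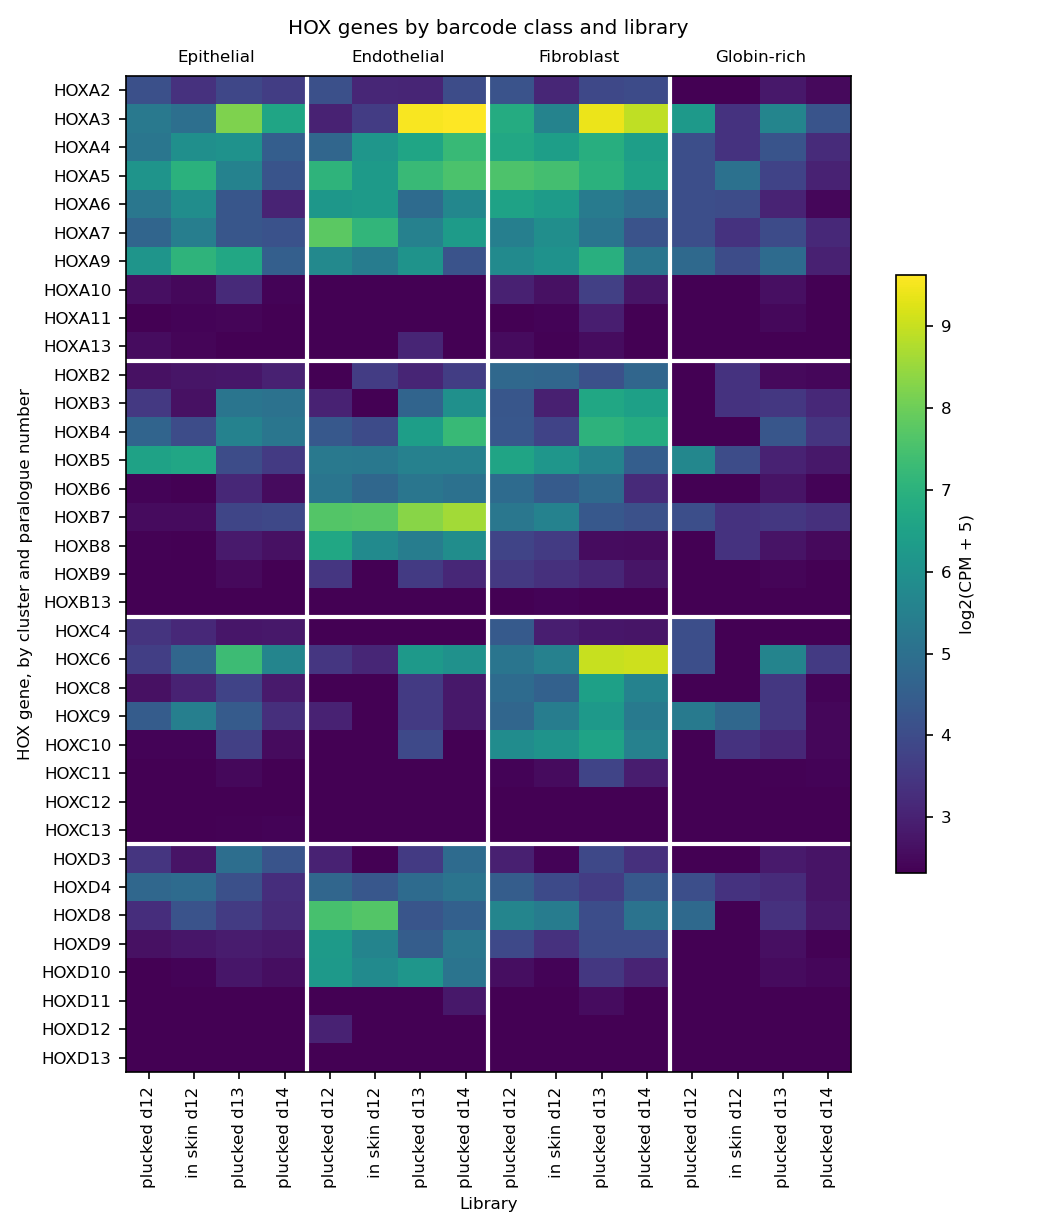
Level of the HOX genes reported, as log2(CPM + 5) by colour, by cluster and paralogue number (rows, genes from low to high number within each cluster) and by barcode class and library (columns). Genes numbered 11 to 13 lie at the dark end of the scale in every column, HOXC8 and HOXC9 are dark in endothelial barcodes while HOXC6 is not in the nuclei, and HOXC10 is brighter in fibroblast barcodes than in epithelial ones of each library.

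HOX transcripts were present in epithelium and mesenchyme alike, and summed to less in epithelium. The 36 genes together made up 445, 655, 881 and 328 CPM in epithelial barcodes of plucked day 12, in-skin day 12, day 13 and day 14, against 1025, 879, 2249.8 and 1696 CPM in fibroblast barcodes of the same libraries. The epithelial sum was the lower one in each library and lay above the globin-rich sum in each. Cluster A gave the largest share of the sum in both classes in each library.

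Genes of groups 11 to 13 were low in both classes. They are the most posterior genes, known in mouse for limb ends, tail and genital structures. Summed over 9 genes they came to 0.995, 0.641, 1.20 and 0.347 CPM in epithelial barcodes of plucked day 12, in-skin day 12, day 13 and day 14, and to 1.00, 1.47, 13.5 and 2.50 CPM in fibroblast barcodes. Of the 13.5 CPM at day 13, 8.99 CPM was HOXC11, from 10 UMIs. HOXC13, known in mouse for hair and nail formation, had 1, 0, 2 and 3 UMIs in the epithelial barcodes and 0 UMIs in the fibroblast barcodes of each library. The fibroblast floors at 3 UMIs were 0.754, 0.210, 2.70 and 2.50 CPM, so a low level in fibroblasts was not detectable at this depth. In group 10, HOXC10 in fibroblasts and HOXD10 in endothelium stood clear of these levels, while HOXA10 had 1.11, 0.591, 4.15 and 0.260 CPM in epithelium. HOXB13, HOXC12, HOXD11, HOXD12 and HOXD13 had 0 to 3 UMIs in each sum of these classes, and HOXA11 and HOXA13 were under 3 CPM in each.

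The first comparison set epithelial against fibroblast barcodes within each library, with the library as a block, over the 8 sums of 4 libraries and 2 classes. Of 12292 genes tested, 2068 (16.8%) were higher and 1648 (13.4%) lower in epithelium at an adjusted p under 0.05 (edgeR quasi-likelihood test, Benjamini-Hochberg adjustment over all genes). Of the 36 HOX genes 26 had enough UMIs to be tested. Of these 13 were lower in epithelium, 1 was higher and 12 did not pass. Their median log2 fold change was -1.28, against 0.21 over all tested genes. The 13 lower genes came from all 4 clusters: 4 of 8 tested in A, 4 of 8 in B, 3 of 5 in C and 2 of 5 in D. They came also from each stretch of the axis, as 3 of 5 anterior, 7 of 14 central and 3 of 7 posterior genes tested. Each of the 13 was lower in all 4 libraries.

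Cluster C held the gene with the widest fitted gap. HOXC10 (ENSGALG00000029393), a marker of lumbar level in mouse, had 0.278, 0.296, 8.11 and 0.780 CPM in epithelial barcodes of plucked day 12, in-skin day 12, day 13 and day 14. In fibroblast barcodes of the same libraries it had 53.8, 62.5, 89.0 and 40.8 CPM. The classes did not overlap, and the epithelial level at day 13 stood beside 3.82 CPM in globin-rich nuclei. The share of all tested genes without overlap was not counted, here or for the genes that follow. The log2 fold change was -5.78 ± 0.91 (SE, n = 4 libraries, adjusted p = 0.0089, edgeR). The epithelial values rest on 12, 6, 88 and 9 UMIs in the same order of libraries, so the size of the fold is uncertain.

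HOXC8 (ENSGALG00000037262), known in mouse for thoracic vertebrae and brachial motor neurons, had 1.30, 3.06, 8.84 and 2.25 CPM in epithelial barcodes of those libraries, against 24.4, 19.1, 84.5 and 42.5 CPM in fibroblast barcodes. The groups did not overlap and the log2 fold change was -3.34 ± 0.34 (SE, n = 4, adjusted p = 0.0054, edgeR). HOXC6, a thoracic-level gene in mouse, had 7.85, 21.7, 155 and 44.6 CPM in epithelial and 30.4, 40.9, 509 and 528 CPM in fibroblast barcodes. Within each library epithelium was the lower (log2 fold change -1.79 ± 0.39, SE, n = 4, adjusted p = 0.0206, edgeR). HOXC9, needed for thoracic motor neuron identity in mouse, did not follow. It had 16.6, 39.6, 16.6 and 4.94 CPM in epithelial barcodes, against 21.6, 37.7, 71.0 and 34.2 CPM in fibroblast barcodes. Epithelium was lower in 3 of 4 libraries and the difference did not pass (adjusted p = 0.146, edgeR). HOXC4 had 1.67 to 15.8 CPM in either class and did not pass.

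In cluster B the gap was wide in HOXB2 and HOXB6, and did not pass in HOXB4, HOXB5 and HOXB7. HOXB2 (ENSGALG00000025774), a hindbrain gene in mouse, had 1.23, 1.68, 1.75 and 3.03 CPM in epithelial barcodes of plucked day 12, in-skin day 12, day 13 and day 14. In fibroblast barcodes it had 22.6, 21.6, 12.6 and 21.7 CPM. Epithelium was the lower class in each library and the ranges over libraries did not overlap (log2 fold change -3.21 ± 0.40, SE, n = 4, adjusted p = 0.0059, edgeR).

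HOXB6 had 0.301, 0.0986, 3.87 and 0.780 CPM in epithelial and 24.4, 16.4, 23.4 and 4.17 CPM in fibroblast barcodes, and HOXB3 had 6.51, 1.23, 30.9 and 28.6 CPM in epithelial and 14.3, 2.80, 96.2 and 83.3 CPM in fibroblast barcodes. Epithelium was lower in each library for both, by a log2 fold change of -4.36 ± 1.07 for HOXB6 and -1.15 ± 0.19 for HOXB3 (SE, n = 4, adjusted p = 0.0287 and 0.0100, edgeR). The epithelial values of HOXB6 rest on 13, 2, 42 and 9 UMIs and its fibroblast value at day 14 on 5 UMIs, so the size of its fold is uncertain. HOXB9 was also lower, but its epithelial sums held 0, 1, 8 and 0 UMIs, so the fitted size is not a measured fold. HOXB5, which activates a VEGF receptor gene in mouse endothelial precursors, had 86.6, 94.2, 11.3 and 6.76 CPM in epithelial and 91.7, 66.4, 43.1 and 17.5 CPM in fibroblast barcodes. The classes overlapped and the difference did not pass (-0.43 ± 0.39, SE, n = 4, adjusted p = 0.431, edgeR). HOXB4, known for the expansion of blood stem cells, had 20.6, 11.2, 42.1 and 31.2 CPM in epithelial and 14.6, 8.83, 126 and 107 CPM in fibroblast barcodes. It was higher in epithelium in both libraries of cells and lower in both libraries of nuclei, and did not pass (adjusted p = 0.487, edgeR). In the RefSeq table HOXB3 overlaps HOXB4, HOXB5 and HOXB6, and HOXB5 overlaps HOXB6, so the split of reads between them is uncertain.

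HOXB7 had 0.857, 0.789, 9.40 and 9.88 CPM in epithelial and 32.2, 41.8, 15.3 and 12.5 CPM in fibroblast barcodes of plucked day 12, in-skin day 12, day 13 and day 14. Epithelium was lower in 4 of 4 libraries and the difference did not pass (-2.83 ± 1.33, SE, n = 4, adjusted p = 0.152, edgeR). HOXB8 was at or under 9.04 CPM in both classes and did not pass.

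By median log2 fold change cluster A was the closest between the classes, at -1.11, against -1.42 in D, -1.79 in C and -2.89 in B. By count it was not, with 4 of 8 tested genes lower in epithelium against 2 of 5 in D. HOXA5 (ENSGALG00000025929), needed for lung formation in mouse, had 63.3, 123, 42.4 and 13.8 CPM in epithelial barcodes of plucked day 12, in-skin day 12, day 13 and day 14. In fibroblast barcodes it had 186, 169, 120.4 and 86.7 CPM, above the epithelial value in each library. The log2 fold change was -1.30 ± 0.31 (SE, n = 4, adjusted p = 0.0271, edgeR).

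Its neighbours HOXA3, HOXA4 and HOXA6 were lower in epithelium by similar amounts, with log2 fold changes of -1.27 ± 0.27, -1.07 ± 0.28 and -1.29 ± 0.36 (SE, n = 4, edgeR). HOXA3, known in mouse for the thymus and parathyroid, had 33.7, 26.8, 292 and 92.3 CPM in epithelial and 108, 43.4, 679 and 485 CPM in fibroblast barcodes. HOXA4 had 31.4, 56.8, 61.3 and 17.6 CPM in epithelial and 98.0, 81.0, 113 and 80.0 CPM in fibroblast barcodes. HOXA6 had 31.9, 54.4, 14.2 and 3.21 CPM in epithelial and 87.2, 75.9, 36.0 and 26.7 CPM in fibroblast barcodes. In the RefSeq gene table (assembly GRCg7b) the HOXA3 gene overlaps HOXA4, HOXA5 and HOXA6, so the split of reads between these 4 genes is uncertain and they are not 4 independent results.

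HOXA9 and HOXA7 did not differ beyond the spread over libraries. HOXA9, which acts in blood progenitors, had 65.0, 129, 99.3 and 18.1 CPM in epithelial barcodes of plucked day 12, in-skin day 12, day 13 and day 14, against 51.7, 60.6, 118 and 30.8 CPM in fibroblast barcodes. It was the higher in epithelium in the 2 libraries of cells and the lower in the 2 of nuclei (0.35 ± 0.28, SE, n = 4, adjusted p = 0.365, edgeR). HOXA7 had 21.1, 38.3, 14.6 and 12.9 CPM in epithelial and 39.4, 56.4, 30.6 and 13.3 CPM in fibroblast barcodes (-0.45 ± 0.25, SE, n = 4, adjusted p = 0.216, edgeR). HOXA2, known in mouse for the identity of a pharyngeal arch, was at 5.37 to 12.1 CPM in epithelial and 3.58 to 13.3 CPM in fibroblast barcodes, and neither it nor HOXA10, at 8.09 CPM or less, passed. HOXA9 and HOXA10 overlap in the RefSeq table.

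Cluster D held the exception. HOXD3 (ENSGALG00000023420), known in human endothelium for promoting vessel growth, had 5.90, 1.53, 25.9 and 13.8 CPM in epithelial and 2.76, 0.280, 9.89 and 5.00 CPM in fibroblast barcodes of plucked day 12, in-skin day 12, day 13 and day 14. It was higher in epithelium in 4 of 4 libraries, though the ranges over libraries overlapped, and it was the only HOX gene to pass in that direction (1.77 ± 0.33, SE, n = 4, adjusted p = 0.0132, edgeR). Its fibroblast values rest on 11, 4, 11 and 6 UMIs, and the call was lost without day 14, without the library block and with at most 5% mitochondrial UMIs. HOXD8, a trunk-level gene, had 4.63, 13.1, 7.0 and 4.16 CPM in epithelial and 44.7, 36.5, 11.7 and 29.2 CPM in fibroblast barcodes (-1.90 ± 0.47, SE, n = 4, adjusted p = 0.0289, edgeR).

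HOXD9 was at 1.30 to 2.30 CPM in epithelial and 5.26 to 10.8 CPM in fibroblast barcodes, and was lower in epithelium (-2.08 ± 0.36, SE, n = 4, adjusted p = 0.0111, edgeR). HOXD4 had 21.9, 24.4, 12.2 and 4.77 CPM in epithelial and 17.1, 10.5, 7.19 and 15.0 CPM in fibroblast barcodes, with epithelium higher in 3 of 4 libraries and no pass (adjusted p = 0.474, edgeR). HOXD10 was at 6.29 CPM or less in both classes and did not pass. HOXD3 and HOXD4 overlap in the RefSeq table.

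HOXC8, HOXB2 and HOXD9 kept an adjusted p under 0.05 in all 15 alternatives, and HOXC10 and HOXB3 in 14 of 15. HOXB6 kept it in 13 of 15, HOXA3 and HOXC6 in 12, HOXA5 in 11, HOXA4 and HOXD8 in 10 and HOXA6 in 9 of 15, and HOXB9 in 11 of the 13 in which it was tested. The count of lower HOX genes was 6 without day 14 and 7 without plucked day 12, against 13 with all 4 libraries.

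**Figure D2:**
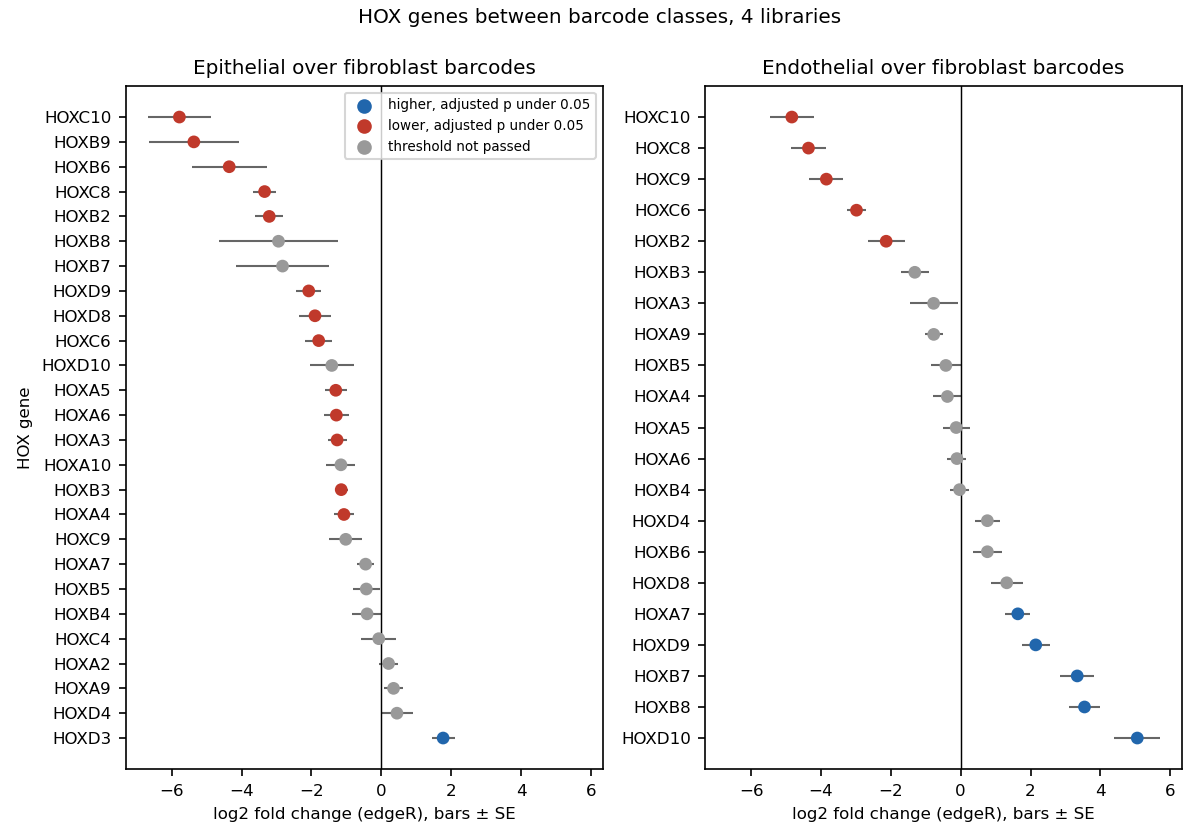
Log2 fold change from edgeR (x axis, bars ± 1 SE) of each tested HOX gene (y axis) for epithelial over fibroblast barcodes (left, 26 genes) and endothelial over fibroblast barcodes (right, 21 genes), with the library as a block. On the left 13 genes lie below 0 past the threshold and HOXD3 lies above it, and on the right the 4 tested cluster C genes lie at the low end.

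The same difference appeared in the share of barcodes with a HOX UMI. After each barcode was thinned to 1000 UMIs, 34.4%, 43.7%, 43.8% and 22.1% of epithelial barcodes of plucked day 12, in-skin day 12, day 13 and day 14 had a UMI of any HOX gene, against 61.7%, 54.7%, 74.4% and 64.8% of fibroblast barcodes. The 95% Clopper-Pearson intervals of the classes were separate in each library, and cover counting error only. In globin-rich barcodes the shares were 9.21% in skin at day 12, 17.5% at day 13 and 4.65% at day 14, below both classes. These rest on the 76 of 153, 4164 of 6187 and 3551 of 5761 globin-rich barcodes that reached 1000 UMIs other than globin and mitochondrial ones. Only 3 globin-rich barcodes reached 1000 such UMIs in plucked day 12, too few for a share. Thinning left out 7 to 318 epithelial and 13 to 69 fibroblast barcodes per library. Unthinned shares were 90.8%, 93.6%, 66.6% and 45.7% in epithelial and 91.9%, 95.6%, 77.9% and 83.1% in fibroblast barcodes, at median depths of 10296, 12071, 2858 and 3161.5 UMIs and of 4411, 5927, 2227 and 3016 UMIs.

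HOXC10 kept its separation in these shares. At 1000 UMIs it was seen in 0.106%, 0.0605%, 0.350% and 0.0373% of epithelial barcodes of plucked day 12, in-skin day 12, day 13 and day 14. In fibroblast barcodes of the same libraries it was seen in 4.88%, 5.11%, 7.31% and 3.75%. At day 13 the share in globin-rich nuclei was 0.480%, above the epithelial share, while the summed level was 8.11 CPM in epithelial and 3.82 CPM in globin-rich nuclei, so no order of these 2 classes is read from the share.

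**Figure D3:**
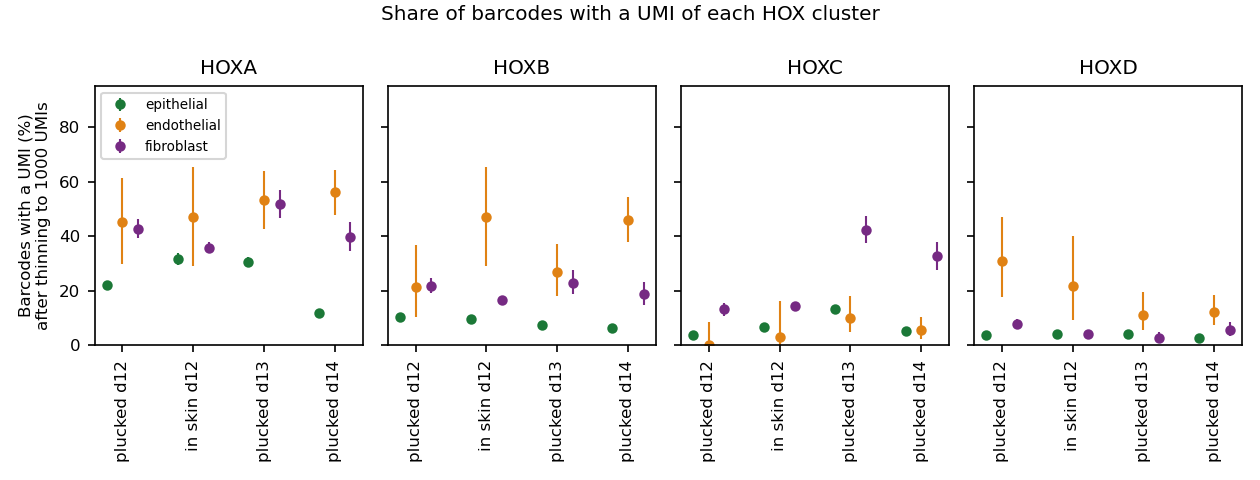
Share of barcodes (y axis, %) with at least 1 UMI of any gene of each HOX cluster (panels) after thinning to 1000 UMIs, by library (x axis) and class (colour), with 95% Clopper-Pearson intervals. Fibroblast barcodes stand above epithelial ones in clusters A, B and C of each library, and endothelial barcodes stand above both in cluster D.

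The cofactors of HOX proteins were examined from the same fit, with a list of 9 cofactor genes of which 7 were found. All 7 were tested, and 2 were lower in epithelium and 0 higher, against 13.4% lower and 16.8% higher over all genes. MEIS1 and MEIS2 were the lower ones, and PBX3, PBX4, PKNOX1 and PKNOX2 did not pass. MEIS1 had 7.11, 2.37, 109 and 91.2 CPM in epithelial barcodes of plucked day 12, in-skin day 12, day 13 and day 14, against 122, 41.0, 642 and 677 CPM in fibroblast barcodes (-3.17 ± 0.41, SE, n = 4, adjusted p = 0.0061, edgeR). MEIS2 had 5.65, 16.7, 98.3 and 99.3 CPM in epithelial and 70.1, 99.9, 569.9 and 623 CPM in fibroblast barcodes (-2.61 ± 0.28, SE, n = 4, adjusted p = 0.0057, edgeR). Both genes were lower in epithelium in each library, while their ranges over libraries overlapped between the classes. PBX3 had 75.5, 47.3, 418 and 323 CPM in epithelial and 73.1, 53.8, 356 and 303 CPM in fibroblast barcodes.

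Of 24 regulators of HOX loci, 18 were found and 16 tested. The retinoic acid receptor genes RARA (1.30 ± 0.18) and RARG (0.88 ± 0.16) and GMNN (1.84 ± 0.25), which encodes geminin, an inhibitor of DNA replication licensing that also binds HOX proteins, were higher in epithelium (log2 fold change ± SE, n = 4, edgeR). The Polycomb subunit genes PCGF2 (-1.49 ± 0.29) and RNF2 (-1.28 ± 0.32) were lower. The other 11 tested did not pass. The 3 higher and 2 lower of 16 are near the 16.8% and 13.4% of all genes, so the counts are no result about these regulators as a list.

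Endothelial barcodes (at least 3 UMIs of PECAM1, CDH5 and KDR together) gave a further reference for the mesenchyme. They also had at most 2 UMIs of GATA3 and KRT5, at most 4 of COL1A1 and COL1A2 and under 50% globin UMIs. Fibroblast barcodes had at least 5 UMIs of COL1A1 and COL1A2, so collagen counts also part these classes. This comparison was added after the values had been seen. They numbered 48, 32, 99 and 166 in plucked day 12, in-skin day 12, day 13 and day 14. All 8 endothelial markers were higher in them than in fibroblast barcodes, 3 of which define the class. Epithelial markers summed to 917 to 2379 CPM there and to 487 to 1559 CPM in fibroblast barcodes, against 2609.6 to 7575 CPM in epithelial barcodes. Of 8601 genes tested, 573 (6.66%) were higher and 663 (7.71%) lower in endothelial barcodes. Of 21 HOX genes tested 5 were higher and 5 lower, and the HOX median was -0.13 against -0.04 over all genes. The 5 lower ones were HOXB2 and all 4 cluster C genes tested. The 5 higher ones were HOXA7, HOXB7, HOXB8, HOXD9 and HOXD10. With 10% of each class's UMIs taken away after the globin-rich profile, 5 of 21 HOX genes tested were higher and 5 lower, against 460 and 591 of all 8212 genes. That 10% is a set share and not an estimate of free RNA. At day 12 the profile holds 25 HOX UMIs in plucked and 24 in in-skin feathers.

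HOXB7 had 198, 205, 315 and 384 CPM in endothelial barcodes of plucked day 12, in-skin day 12, day 13 and day 14, against 32.2, 41.8, 15.3 and 12.5 CPM in fibroblast barcodes (3.34 ± 0.48, SE, n = 4, adjusted p = 0.0029, edgeR). HOXD10, linked in human endothelium to the resting state of vessels, had 70.2, 51.3, 65.8 and 30.1 CPM in endothelial and 1.00, 0.280, 6.29 and 3.33 CPM in fibroblast barcodes (5.06 ± 0.66, SE, n = 4, adjusted p = 0.0019, edgeR). HOXB8 had 97.6, 51.3, 38.1 and 54.6 CPM in endothelial and 9.04, 7.15, 0.899 and 0.833 CPM in fibroblast barcodes. For none of these 3 genes did the classes overlap, and the share of all tested genes without overlap was not counted. HOXA7 had 214, 136, 41.6 and 75.3 CPM in endothelial and 39.4, 56.4, 30.6 and 13.3 CPM in fibroblast barcodes (1.64 ± 0.36, SE, n = 4, adjusted p = 0.0178, edgeR), and passed in 12 of 15 alternatives. HOXB2, among the lower genes, passed in 8 of the 12 in which it was tested.

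All 4 cluster C genes tested were lower in endothelium, and 3 of them had few UMIs there. HOXC10 had 0, 0, 3 and 0 UMIs in endothelial barcodes, HOXC8 0, 0, 2 and 1, and HOXC9 1, 0, 2 and 1. At these counts the endothelial floor at 3 UMIs was 5.65 to 10.99 CPM, so the fitted sizes depend on the fit. HOXC6 had 6.10, 3.66, 72.8 and 60.2 CPM in endothelial and 30.4, 40.9, 509 and 528 CPM in fibroblast barcodes (-2.98 ± 0.27, SE, n = 4, adjusted p = 0.0005, edgeR). Its endothelial values at day 12 lay under the floors, 9.15 CPM in plucked and 10.99 CPM in in-skin feathers. HOXA3, by contrast, had 3.05 and 7.33 CPM in endothelial cells of plucked and in-skin feathers at day 12, and 745 and 783 CPM in endothelial nuclei at days 13 and 14. In fibroblast barcodes of the same libraries it had 108, 43.4, 679 and 485 CPM, and no difference passed (adjusted p = 0.542, edgeR). The day 12 endothelial values of HOXA3 were also under those floors.

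The second comparison set plucked feathers against feathers left in skin, both whole cells at day 12. Each group is 1 library, so these ratios have no replicate and were not tested. A gene is called past the fold when its log2 ratio of CPM + 5 is at least 1 in size and it has at least 10 CPM in either library, and intervals are built from exact 95% Poisson intervals, which cover counting error only. In epithelial barcodes 1203 of 7556 genes (15.9%) were past the fold upwards in plucked feathers and 179 (2.37%) downwards. Under TMM scaling the split was 622 against 514 and the median over all genes moved to -0.08, against 0.25.

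Of 13 HOX genes tested in epithelium 0 were past the fold upwards and 2 downwards, and 10 of the 13 ratios were below 0. Their median was -0.73, against 0.25 over all genes. The epithelial class also differed in make-up between these libraries. KRT14 had 1106 CPM in plucked and 3188 CPM in in-skin epithelium, and DSP had 3336 and 1040 CPM. The part of make-up in the HOX ratios was not tested. HOXC6 had 7.85 CPM in plucked and 21.7 CPM in in-skin epithelium, a log2 ratio of -1.06 (interval -1.26 to -0.85). HOXC9 had 16.6 CPM in plucked and 39.6 CPM in in-skin epithelium, a log2 ratio of -1.05 (-1.22 to -0.87). Both lay just past the fold. The count of 2 was 0 to 8 in the alternatives, all of them downwards except 1 gene upwards with a pseudocount of 1 CPM and 1 with at most 5% mitochondrial UMIs.

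The run of genes from HOXA4 to HOXA9 had the same sign. Their log2 ratios were -0.76 for HOXA4, -0.90 for HOXA5, -0.69 for HOXA6, -0.73 for HOXA7 and -0.94 for HOXA9. HOXA9, for example, had 65.0 CPM in plucked and 129 CPM in in-skin epithelium, and HOXA5 had 63.3 CPM in plucked and 123 CPM in in-skin epithelium. Under TMM scaling all 5 were past the fold, at -1.001 to -1.27, as HOXD8 was. The 3 ratios above 0 were those of HOXA2 (0.72), HOXA3 (0.28) and HOXB4 (0.66), and that of HOXA3 was -0.02 under TMM scaling. By paralogue number, 2 of 2 anterior genes tested were above 0, 8 of 9 central genes below 0 and 2 of 2 posterior genes below 0. The median over all genes was 0.25, near the ratio of HOXA3, and the share of all genes above 0 was not counted. No order along the axis is read from these signs.

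In fibroblast barcodes 1809 of 8407 genes (21.5%) were past the fold upwards in plucked feathers and 251 (2.99%) downwards, with 660 and 839 under TMM scaling. Of 21 HOX genes tested 4 were past the fold upwards and 0 downwards, a share near that of all genes. They were HOXC4 (15.8 CPM in plucked, 2.66 CPM in skin, log2 ratio 1.44), HOXB3 (14.3 and 2.80 CPM, 1.31), HOXA3 (108 and 43.4 CPM, 1.22) and HOXA2 (13.3 and 3.58 CPM, 1.10). Under TMM scaling 1 HOX gene was past the fold upwards and 2 downwards, so the direction of these calls depends on the scaling. HOXC9 (-1.21) and HOXA7 (-1.03) were the 2 downwards, and HOXA3 stood at 0.64 and HOXB3 at 0.97.

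The HOX median was 0.26, against 0.42 over all genes, and under TMM scaling -0.31 against -0.14. The fibroblast class differed in make-up between these libraries: 56 of 853 plucked barcodes, against 1266 of 2298 in-skin ones, had at least 3 UMIs of the smooth muscle, tendon and muscle genes ACTG2, MYH11, TNMD and MYOD1. Without those barcodes 2 of 20 HOX genes tested were past the fold, upwards, and the HOX median was -0.0044. Over all genes 1551 of 8395 were then past the fold upwards and 191 downwards, with a median of 0.40.

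**Figure D4:**
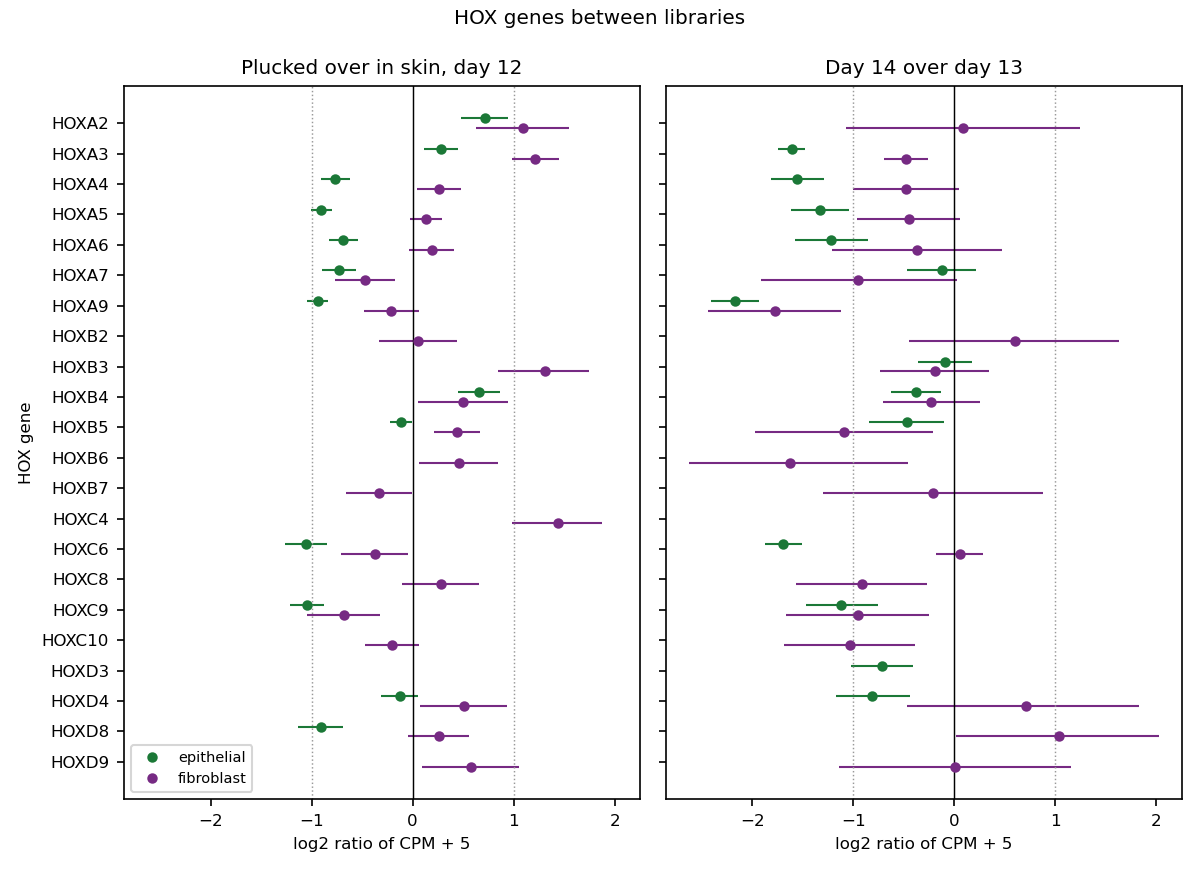
Log2 ratio of CPM + 5 (x axis) for each HOX gene tested (y axis), for plucked over in-skin feathers at day 12 (left) and day 14 over day 13 (right), in epithelial and fibroblast barcodes (colour). Bars are 95% intervals from Poisson counting alone and dotted lines mark the fold at which a gene is called. All 13 epithelial points on the right lie below 0.

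The third comparison set day 14 against day 13, both nuclei of plucked feathers. In epithelium 215 of 8879 genes (2.42%) were past the fold upwards at day 14 and 314 (3.54%) downwards. The split was 365 and 147 under TMM scaling and 223 and 230 with all UMIs as the total. Of 13 HOX genes tested 7 were past the fold downwards and 0 upwards. All 13 ratios were below 0, with a median of -1.12 against -0.22 over all genes. That HOXA9 was low at day 14 was known from earlier results on these libraries.

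HOXA9 had 18.1 CPM in epithelial nuclei at day 14 and 99.3 CPM at day 13, a log2 ratio of -2.17 (interval -2.41 to -1.93). HOXC6 had 44.6 CPM at day 14 and 155 CPM at day 13 (-1.69, -1.87 to -1.51). HOXA3 had 92.3 CPM at day 14 and 292 CPM at day 13 (-1.61, -1.74 to -1.48). These 3 had the largest ratios, and the intervals of HOXA9 and HOXC6 did not meet. HOXA4 (-1.55), HOXA5 (-1.33), HOXA6 (-1.22) and HOXC9 (-1.12) were the other genes past the fold.

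HOXC9 had 4.94 CPM at day 14 and 16.6 CPM at day 13, and HOXA6 had 3.21 CPM at day 14 and 14.2 CPM at day 13. HOXA7 was at 12.9 CPM at day 14 and 14.6 CPM at day 13, and HOXB3 at 28.6 CPM at day 14 and 30.9 CPM at day 13. Their ratios of -0.13 and -0.09 had intervals that held 0, and under TMM scaling they were 0.07 and 0.14. None of the 3 cluster B genes or the 2 cluster D genes tested was past the fold, against 5 of 6 in cluster A and 2 of 2 in cluster C. Among those of cluster A, HOXA3 overlaps HOXA4, HOXA5 and HOXA6 in the RefSeq table, so these are not independent results. The difference between clusters was not tested. Under TMM scaling 6 of 14 HOX genes tested were past the fold, all downwards, with a median of -0.80 against 0.03 over all genes.

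The level in globin-rich nuclei, used as a level for free RNA, moved the same way. Transcripts of the red blood cells themselves were not told apart from free RNA in it. In globin-rich nuclei the HOX genes summed to 61.1 CPM at day 14 and 219 CPM at day 13, the fibroblast markers to 231 and 656 CPM, and the epithelial markers to 579 and 1683 CPM. In the epithelial nuclei themselves the fibroblast markers summed to 254 CPM at day 14 and 569 CPM at day 13, with none of the 12 at 0. With 10% of each class's UMIs taken away after the globin-rich profile, 7 of 15 HOX genes tested were past the fold, all downwards. Their median was -0.83, against -0.25 over all genes. Of all 8628 genes tested 244 were past the fold upwards and 367 downwards. Without this step 13 HOX genes were tested, so their median of -1.12 is over another set of genes. The 10% was set and not estimated, so the effect of a larger part of free RNA was not tested.

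The share of epithelial nuclei with any HOX UMI, thinned to 1000 UMIs, was 22.1% at day 14 (95% interval 20.6 to 23.8) and 43.8% at day 13 (41.9 to 45.8), at near-equal median depths. For HOXA9 it was 1.49% at day 14 and 7.54% at day 13, against 0.282% and 1.95% in globin-rich nuclei of the same days. For HOXA3 it was 7.16% at day 14 and 18.4% at day 13, against 1.10% and 3.72% in globin-rich nuclei.

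In fibroblast nuclei the change was smaller and less one-sided. Of 9525 genes 253 (2.66%) were past the fold upwards at day 14 and 438 (4.6%) downwards, and the split was 336 and 300 under TMM scaling and 361 and 179 with all UMIs as the total. Of 20 HOX genes tested 4 were past the fold downwards and 1 upwards, and the median was -0.41 against -0.14 over all genes. The 4 were HOXA9 (30.8 CPM at day 14, 118 CPM at day 13, log2 ratio -1.78), HOXB6 (4.17 and 23.4 CPM, -1.63), HOXB5 (17.5 and 43.1 CPM, -1.10) and HOXC10 (40.8 and 89.0 CPM, -1.04). HOXD8 was the gene past the fold upwards, with 29.2 CPM at day 14 and 11.7 CPM at day 13 from 35 and 13 UMIs (1.03, interval 0.02 to 2.02).

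HOXC6, among the most reduced genes of epithelium, had 528 CPM in fibroblast nuclei at day 14 and 509 CPM at day 13, a log2 ratio of 0.05 (-0.18 to 0.28). HOXA3 had 485 CPM at day 14 and 679 CPM at day 13 there, a ratio of -0.48 (-0.70 to -0.26), against -1.61 in epithelium. The intervals of the 2 classes were separate for both genes, on counting error alone. Among HOX genes tested in both classes, HOXA9 was the only 1 past the fold downwards in both, by -2.17 in epithelium and -1.78 in fibroblasts, with overlapping intervals. HOXC10, past the fold in fibroblasts, had a log2 ratio of -1.18 (-1.48 to -0.83) in epithelium, from 9 UMIs at day 14 and 88 at day 13. It was under 10 CPM there and so was not among the genes tested.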

How the data were processed

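The deposited values are raw UMI counts per gene and barcode, written by Cell Ranger, version 3.1.0 in both libraries of cells and version 7.0.0 in both libraries of nuclei, per the file headers. The submitters' processing notes name Cell Ranger 7.0.0 and GRCg6a for all libraries. Whether intronic reads were counted is not given in the sources used here. The gene table at hand is of another assembly, GRCg7b, in which 33 of the 36 symbols matched; it was used only for names and overlapping genes, and no coordinates are given.

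Barcodes had at least 500 UMIs, 300 genes and at most 10% mitochondrial UMIs (13 genes); doublets were not called, and a cap at 3 times the class median UMIs and a limit of 1 UMI of the other class's markers stood in as alternatives. CPM left out 7 globin genes and the mitochondrial genes. Classes were compared on UMI counts summed per library and class with edgeR 4.0.16 in R 4.3.3 (library as a block, TMM, filterByExpr, quasi-likelihood F test, Benjamini-Hochberg adjustment over all genes, threshold 0.05); DESeq2 1.42.0 was an alternative. The SE is the fold change over the root of F. The libraries differ in age, tissue and preparation and are not replicates of 1 condition, so p-values measure the spread over them. On simulated counts of this comparison (12226 genes) the fit recovered 71 of 99 genes changed by a log2 size of 1 and 98 of 100 of size 2, with 4 false calls. The simulation used a fixed dispersion and gave both classes of a library the same library effect. It therefore does not show how the fit behaves where a class difference changes between libraries, as for HOXA9 and HOXB4. For library ratios 5 CPM were added to both levels, so low genes appear to differ less than they do. Shares were taken after thinning to 1000 UMIs. Python 3.11.15, numpy 2.4.6, scipy 1.17.1, pandas 2.3.3 and matplotlib 3.10.9 were used.

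HOX genes were named except where an item is not reported here, and values per library were given for the 19 genes at 20 CPM or more in epithelial or fibroblast barcodes of any library; others are given by range or count, or in full where a test or the endothelial values turned on them. The members, classes and gene lists were chosen with earlier results of these data known.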

Additional observations from a re-analysis of the deposited data

Results flagged for a closer look

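HOXA4 and HOXB5 had ratios of opposite sign in the 2 classes when plucked feathers were set against feathers in skin at day 12. HOXA4 had a log2 ratio of -0.76 in epithelial barcodes (31.4 CPM in plucked, 56.8 CPM in skin) and 0.26 in fibroblast barcodes (98.0 and 81.0 CPM). HOXB5 had a log2 ratio of -0.12 in epithelial barcodes (86.6 CPM in plucked, 94.2 CPM in skin) and 0.44 in fibroblast barcodes (91.7 and 66.4 CPM). Each interval left out 0 on counting error alone, and the difference between the classes was not tested, since there is 1 library a group. Under TMM scaling the fibroblast ratios were -0.33 for HOXA4 and -0.14 for HOXB5, of the same sign as the epithelial ones.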

How the results depend on the processing

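Between epithelial and fibroblast barcodes 3716 genes passed, 434 without the library block and 1856 to 2792 with 1 library left out (lowest without day 14, 2150 without plucked day 12). HOX genes lower in epithelium numbered 13, 3 without the block and 6 to 13 with 1 library left out; HOX genes higher numbered 1, 2 without a filter on low counts, 0 without the block or with at most 5% mitochondrial UMIs, and 0 to 1 with 1 library left out. Between endothelial and fibroblast barcodes 1236 genes passed, 2029 without a filter, 73 without the block and 738 to 990 with 1 library left out; the 5 HOX genes higher were 1 without the block, 3 with at most 5% mitochondrial UMIs and 3 to 5 with 1 library left out (3 without plucked day 12), and the 5 lower were 1 without the block and 4 to 5. Signs turned between epithelium and fibroblasts for HOXB5 (0.12 without the block), HOXC4 (-0.52 to 0.56 over the alternatives) and HOXA2 (-0.02 to 0.31 over the alternatives). Between endothelium and fibroblasts they turned for HOXB4 (0.017 without the block, -0.33 to 0.27 with 1 library left out, 0.10 at 5% mitochondrial UMIs), HOXA3 (0.16 without the block) and HOXA5 (-0.54 to 0.16 with 1 library left out). None of these differences was called. Of plucked over in-skin epithelium, the 2 HOX genes past the fold became 4 (1 upwards, 3 downwards) with a pseudocount of 1 CPM or 5% mitochondrial UMIs, 8 with TMM scaling, 1 at 20% mitochondrial UMIs, and 0 with a pseudocount of 10 CPM, the mean of barcode CPM, or at most 1 UMI of the other class's markers. In fibroblasts the 4, all upwards, became 1 upwards and 2 downwards with TMM scaling. They became 2 upwards with a pseudocount of 10 CPM or without barcodes with smooth muscle, tendon or muscle UMIs. For day 14 over day 13 the 7 epithelial genes stayed within 1.5 times in 12 of 12 alternatives, and the 5 fibroblast genes became 3 with TMM scaling, all UMIs as the total or without those barcodes, and 2 with a pseudocount of 10 CPM or the mean of barcode CPM. Thinned to 500 UMIs, shares with a HOX UMI in plucked day 12, in-skin day 12, day 13 and day 14 were 19.2%, 26.2%, 26.2% and 12.9% in epithelial and 39.6%, 33.8%, 48.6% and 49.7% in fibroblast barcodes. The causes were not tested. Fewer UMIs in fibroblast nuclei, with floors of 2.70 and 2.50 CPM, limit what low genes can show there.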

Other observations

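The levels of several HOX genes stood apart between the 2 libraries of cells and the 2 of nuclei, in both classes. In fibroblast barcodes HOXC6 had 30.4 and 40.9 CPM in cells of plucked and in-skin feathers and 509 and 528 CPM in nuclei at days 13 and 14. HOXB4 had 14.6 and 8.83 CPM in those cells and 126 and 107 CPM in those nuclei. HOXA6 ran the other way, with 87.2 and 75.9 CPM in cells and 36.0 and 26.7 CPM in nuclei, and HOXB5 had 91.7 and 66.4 CPM in cells and 43.1 and 17.5 CPM in nuclei. Age, preparation and software version cannot be told apart in these differences. The overlap of HOXA3 with HOXA4 to HOXA6 and of HOXB3 with HOXB4 to HOXB6 in the RefSeq table is set beside them as a fact of annotation, and its part was not tested.

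Within the mesenchyme, barcodes with at least 3 UMIs of ACTG2, MYH11, TNMD and MYOD1 had a lower HOX sum than the other collagen-rich barcodes. In plucked feathers at day 12 the HOX genes summed to 665 CPM in 56 such barcodes and 1063 CPM in the 797 others, and in skin to 767 CPM in 1266 such barcodes and 1064 CPM in the 1032 others. Cluster D went the other way in plucked feathers at day 12, with 122 CPM in such barcodes and 70.9 CPM in the others, against 42.5 and 70.2 CPM in skin. In nuclei it had 25.0 CPM, from 3 UMIs, and 49.4 CPM at day 13. At day 14 it had 87.3 CPM, from 7 UMIs, and 61.6 CPM. The threshold also depends on depth. Median depth was 6820 UMIs in such barcodes and 4272 in the others in plucked feathers at day 12, and 6532 and 5157 in skin. HOXC10 differed between the libraries. In plucked feathers at day 12 it had 5.19 CPM, from 2 UMIs, in the barcodes past the threshold and 59.0 CPM in the others. In skin it had 64.1 CPM in those past the threshold and 60.0 CPM in the others. At day 13 it had 74.9 CPM, from 9 UMIs, in those past the threshold and 90.7 CPM in the others. At day 14 it had 0 UMIs in the 22 barcodes past the threshold and 43.8 CPM in the others. This split was made after the data were seen and has no test.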
